A study of Mus musculus with 8 samples.

Results

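A group of 10 receptor genes was followed through 4 populations of mouse myeloid cells. Its members encode the mannose receptor Mrc1, its collagen-binding relative Mrc2, the stabilin Stab1, the class A scavenger receptors Msr1 and Marco, the class B receptors Cd36 and Scarb1, the lysosomal glycoprotein Cd68, the oxidised lipoprotein receptor Olr1 and the endocytic receptor Lrp1. Members were taken by gene symbol, and each had 1 probe set, so 10 of 35556 probe sets and 10 of 21442 named genes are described. The 4 populations had 2 arrays each and came from Cx3cr1gfp/+ C57BL/6 mice, in which a green fluorescent protein replaces 1 copy of the fractalkine receptor gene Cx3cr1, in every group including the healthy ones. F4/80-high tumour-associated macrophages (F4/80-high TAM) and Ly6C-high tumour-infiltrating macrophages (Ly6C-high TAM) were sorted from colorectal tumours grown orthotopically, that is, in the organ itself. Healthy cells were steady-state macrophages of the lamina propria (colon macrophages) and Ly6C-high splenic monocytes (spleen monocytes). No treatment was given, no age is stated, and the labels give male for all tumour arrays, male and female for the colon arrays, and male and mixed for the spleen arrays. The healthy counterpart of the tumour-infiltrating Ly6C-high cells was thus a spleen population, so tissue and tumour cannot be told apart in that comparison.

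Scavenger receptors bind modified lipoproteins, dying cells, microbes and matrix fragments, and carry them into the cell for breakdown in lysosomes. The mannose receptor family takes up collagen in the same way: Mrc1 and Mrc2 both hold a fibronectin type II domain that binds collagen, and fragments cut outside the cell by proteases are internalised through clathrin-coated pits. Resident macrophages of the gut wall are known for high Mrc1 and Stab1, which blood-type monocytes largely lack and gain as they mature. All values below are log2 expression values made by the authors with RMA, a method that corrects background, normalises between arrays and summarises probes. A difference of 1 is therefore a doubling of signal, and probe sets respond unequally, so levels are compared between populations and not between genes.

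Members were tested in the 6 pairs of populations with limma, in a fit over all genes, and passed at a Benjamini-Hochberg adjusted p of 0.05 or less with a fold of 2 or more. The difference between both tumour differences was tested at the same adjusted p with no fold limit. The labels do not say whether replicate arrays came from separate animals, so p-values measure the spread between these samples, which may be technical. Between 76 genes (spleen monocytes) and 1536 genes (Ly6C-high TAM) differed 2-fold or more between the arrays of 1 population. The mean log2 value of 13 epithelial markers was 6.90 and 8.78 in the F4/80-high TAM, 7.08 and 9.36 in the Ly6C-high TAM, 11.22 and 12.02 in the colon macrophages, and 7.0 and 6.27 in the spleen monocytes. Adgre1, which encodes F4/80, read 12.49 and 12.31 in the F4/80-high TAM, 11.93 and 11.15 in the Ly6C-high TAM, 12.92 and 12.83 in the colon macrophages, and 12.07 and 12.02 in the spleen monocytes, so it lay only a little lower in the monocytes than in the F4/80-high TAM. Ly6c2, a gene of the Ly6C antigen, read 10.91 and 11.57 in the F4/80-high TAM, 13.01 and 12.71 in the Ly6C-high TAM, 9.89 and 10.16 in the colon macrophages, and 12.91 and 12.93 in the spleen monocytes, higher in both populations labelled Ly6C-high than in the others. The mean of 9 macrophage and monocyte genes lay between 11.70 and 12.36 on the 8 arrays, and among them Mertk, a receptor for dying cells that marks mature macrophages, read 7.52 and 6.95 in the monocytes, against 10.21 to 11.94 on the other arrays. These were bulk samples, so fewer cells of a type and less RNA per cell cannot be told apart.

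**Figure D1:**
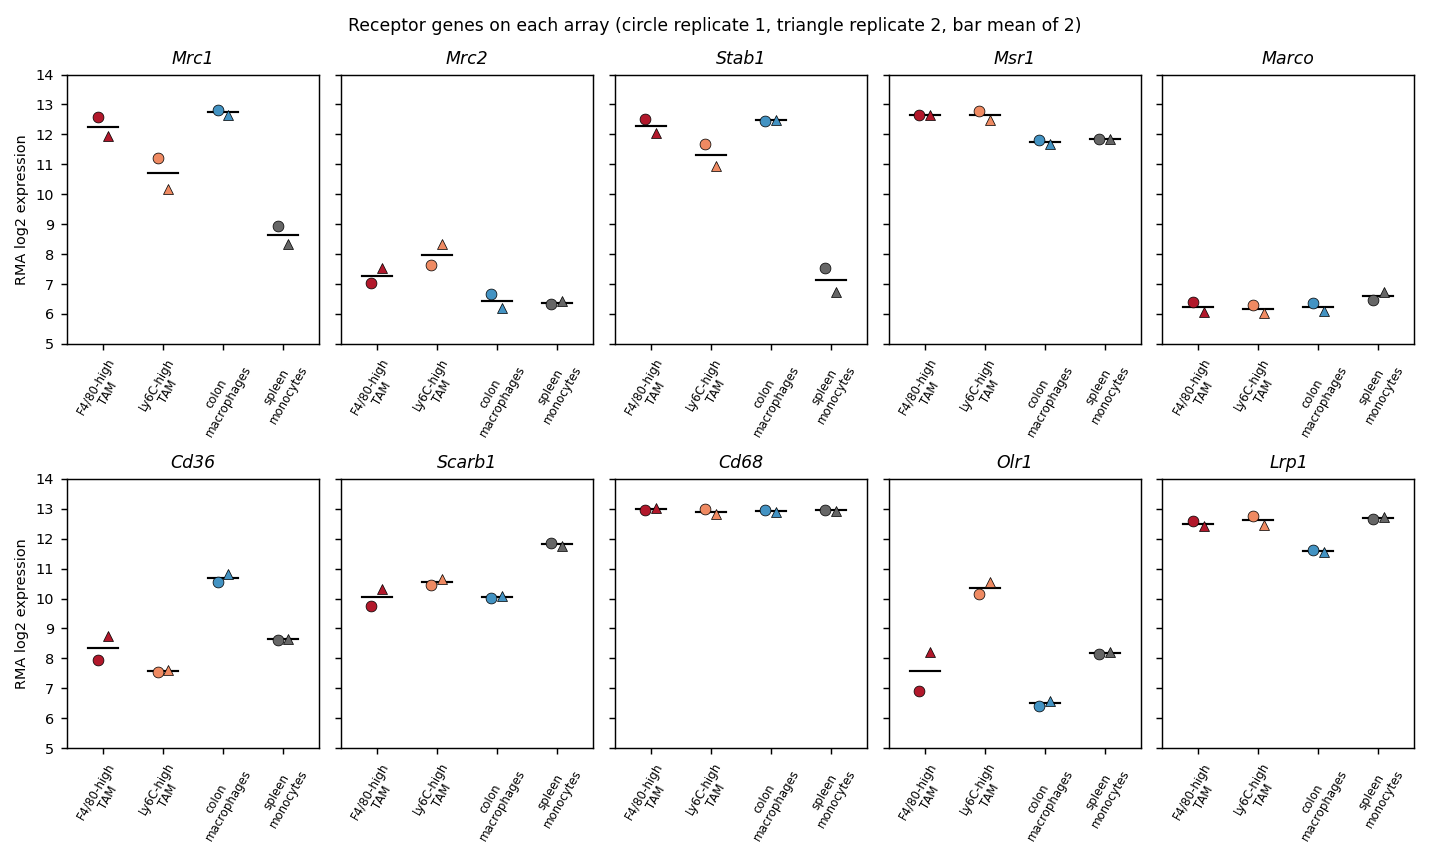
RMA log2 expression of each receptor gene (vertical axis) on every array of the 4 populations (horizontal axis), with circles for replicate 1, triangles for replicate 2 and a bar at the mean of 2. Mrc1 and Stab1 lie lowest in spleen monocytes, Cd36 lies highest in colon macrophages, Olr1 lies highest in Ly6C-high TAM, and Cd68 spans 0.22 over all arrays.

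Of the 10 members, 7 passed in at least 1 of the 6 pairs and 3 (Msr1, Marco and Cd68) passed in none. The share of all genes that passed in at least 1 pair is not given, so this count alone is no result about the members. Shares are given pair by pair. In F4/80-high TAM minus colon macrophages, 0 members passed as higher and 1 as lower, where 2.67% of all genes were higher and 3.72% lower (6.39% in all). In that pair 3 members passed the adjusted p alone (12.3% of all genes), and the arrays did not overlap for 6 members (50.8% of all genes). In F4/80-high TAM minus Ly6C-high TAM, 0 members passed in limma, where 0.168% of all genes were higher and 0.0979% lower (0.266% in all, and 0.275% with no fold limit). There the arrays did not overlap for 6 members, against 29.8% of all genes.

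In Ly6C-high TAM minus spleen monocytes, 4 members were higher and 1 lower, where 2.88% of all genes were higher and 1.62% lower (4.5% in all, and 6.74% with no fold limit). The arrays did not overlap for 8 members (60.6% of all genes). In F4/80-high TAM minus spleen monocytes, 2 were higher and 1 lower, where 4.58% of all genes were higher and 2.37% lower (6.95% in all, and 11.7% with no fold limit). The arrays did not overlap for 7 members (60.7% of all genes). In Ly6C-high TAM minus colon macrophages, 3 were higher and 2 lower, where 2.74% of all genes were higher and 4.16% lower (6.9% in all, and 11.4% with no fold limit). The arrays did not overlap for 8 members (46.4% of all genes). In colon macrophages minus spleen monocytes, 3 were higher and 3 lower, where 6.93% of all genes were higher and 4% lower (10.9% in all, and 18.5% with no fold limit), and the arrays did not overlap for 8 members (63.9% of all genes). The median member difference lay between -0.08 and 0.37 in the 6 pairs, against -0.083 to 0.048 for the median of all genes.

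**Figure D2:**
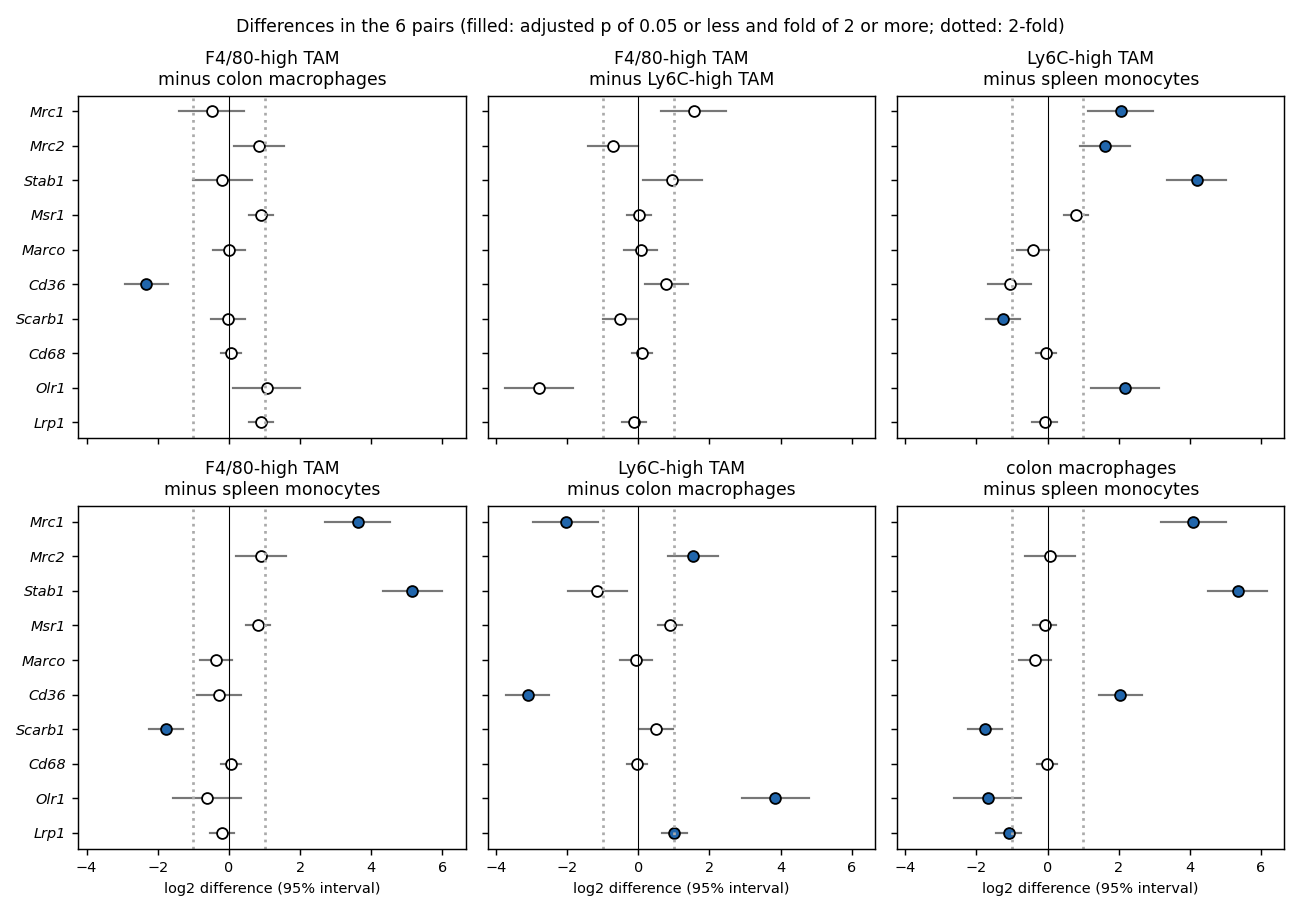
Log2 difference of each receptor gene in the 6 pairs of populations, with the 95% interval of the fit. Filled points passed the threshold and dotted lines mark a 2-fold difference; Cd36 is the filled point in F4/80-high TAM minus colon macrophages, and no point is filled in F4/80-high TAM minus Ly6C-high TAM.

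Mrc1, the mannose receptor, takes up mannose-bearing glycoproteins and collagen and is widely used to mark tissue macrophages. It read 12.57 and 11.95 in the F4/80-high TAM, 11.21 and 10.19 in the Ly6C-high TAM, 12.82 and 12.66 in the colon macrophages, and 8.94 and 8.34 in the spleen monocytes. The populations did not overlap in any pair, and colon macrophages and F4/80-high TAM lay above Ly6C-high TAM, with the monocytes lowest. Colon macrophages exceeded spleen monocytes by 17.1-fold (4.10 ± 0.38 on the log2 scale with its SE, 2 arrays each, adjusted p = 0.00109 in limma). F4/80-high TAM exceeded the monocytes by 12.3-fold (3.62 ± 0.38, adjusted p = 0.00225), and both calls held with any 1 array left out. Ly6C-high TAM were 4.17-fold above the monocytes (2.06, adjusted p = 0.0269) and 4.11-fold below colon macrophages (-2.04, adjusted p = 0.0197). The call against the monocytes was lost without either colon array (adjusted p = 0.0676 each), spleen monocyte replicate 1 (adjusted p = 0.0936) or spleen monocyte replicate 2 (adjusted p = 0.199), and the call against colon macrophages without colon replicate 1 (adjusted p = 0.106) or colon replicate 2 (adjusted p = 0.092). Neither neighbour of F4/80-high TAM in that order differed past the threshold: F4/80-high TAM minus colon macrophages was -0.48 (95% interval -1.40 to 0.43), and F4/80-high TAM minus Ly6C-high TAM was 1.56 (0.64 to 2.47, adjusted p = 0.233).

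Stab1, stabilin 1, clears modified lipoproteins and the matrix protein SPARC from the cell surface. It read 12.52 and 12.04 in the F4/80-high TAM, 11.68 and 10.95 in the Ly6C-high TAM, 12.46 and 12.47 in the colon macrophages, and 7.53 and 6.72 in the spleen monocytes. All 6 arrays from tumour and colon lay above both monocyte arrays, and F4/80-high TAM overlapped colon macrophages. The difference from spleen monocytes was 35.6-fold for F4/80-high TAM (5.15 ± 0.34, adjusted p = 0.000371), 18.3-fold for Ly6C-high TAM (4.19 ± 0.34, adjusted p = 0.00126) and 40.5-fold for colon macrophages (5.34 ± 0.34, adjusted p = 0.000296). These 3 calls held with any 1 array left out. Among the 3 populations where Stab1 was high, none of the differences passed. F4/80-high TAM minus colon macrophages was -0.19 (95% interval -1.01 to 0.64) and turned to 0.06 without F4/80-high TAM replicate 2. F4/80-high TAM minus Ly6C-high TAM was 0.96 (0.14 to 1.78, adjusted p = 0.467). Ly6C-high TAM minus colon macrophages was -1.15 (-1.97 to -0.33, adjusted p = 0.0874), and passed without Ly6C-high TAM replicate 1 (-1.51, adjusted p = 0.0396).

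Mrc1 and Stab1 followed each other over the 8 arrays (Pearson r = 0.96), and both ran opposite to Scarb1 (r = -0.96 for Mrc1 and -0.98 for Stab1). These are descriptions, since the 8 points fall into 4 populations. The genes whose profile was most like that of Mrc1, among named genes with a mean log2 of at least 7, were Ms4a14 (r = 0.998), Sash1 (r = 0.998) and Ms4a7 (r = 0.995). For Stab1 they included the complement component C1qc (r = 0.997) and the transcription factor Etv5 (r = 0.996). Within populations, Mrc1 was lower in replicate 2 than in replicate 1 by 0.62 for F4/80-high TAM, 1.02 for Ly6C-high TAM, 0.16 for the colon cells and 0.59 for the monocytes. In the tumour populations the replicate 2 arrays were also those with more epithelial marker signal, by 1.88 in F4/80-high TAM and 2.28 in Ly6C-high TAM. The part of other cells' RNA in the size of the tumour values was not tested.

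The regions before the gene starts of 4 members are shown because Mrc1 and Stab1 moved together while Olr1 and Cd36 each had a pattern of their own. They are RefSeq windows of 300 bases (GRCm38.p6), from 250 bases before to 50 bases after the annotated start, read on the strand of the gene. Windows were matched for 7 of the 10 members. Capitals mark GAGGAA or its reverse complement TTCCTC, the core letters bound by the myeloid factor PU.1. The Mrc1 window is chr2:14229164-14229463 on the plus strand, the Stab1 window chr14:31168592-31168891, the Olr1 window chr6:129507116-129507415 and the Cd36 window chr5:17835847-17836146, the last 3 on the minus strand. Cd36 is known to have several starts, and this is the one that the table gives.
Mrc1: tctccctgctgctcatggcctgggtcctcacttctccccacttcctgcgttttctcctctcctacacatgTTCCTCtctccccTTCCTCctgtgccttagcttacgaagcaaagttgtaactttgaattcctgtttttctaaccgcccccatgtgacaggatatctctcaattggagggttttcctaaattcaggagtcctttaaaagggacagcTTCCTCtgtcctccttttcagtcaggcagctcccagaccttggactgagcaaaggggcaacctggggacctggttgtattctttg
Stab1: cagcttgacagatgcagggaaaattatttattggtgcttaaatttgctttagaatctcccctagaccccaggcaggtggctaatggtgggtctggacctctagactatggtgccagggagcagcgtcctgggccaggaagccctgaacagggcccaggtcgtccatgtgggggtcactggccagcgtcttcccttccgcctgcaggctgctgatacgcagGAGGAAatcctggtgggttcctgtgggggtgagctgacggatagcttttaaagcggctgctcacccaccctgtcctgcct
Olr1: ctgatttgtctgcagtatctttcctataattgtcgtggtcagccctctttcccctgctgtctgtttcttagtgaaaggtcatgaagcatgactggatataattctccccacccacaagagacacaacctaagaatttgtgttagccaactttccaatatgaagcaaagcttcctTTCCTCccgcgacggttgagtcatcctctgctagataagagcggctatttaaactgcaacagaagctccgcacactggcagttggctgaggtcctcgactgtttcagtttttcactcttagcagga
Cd36: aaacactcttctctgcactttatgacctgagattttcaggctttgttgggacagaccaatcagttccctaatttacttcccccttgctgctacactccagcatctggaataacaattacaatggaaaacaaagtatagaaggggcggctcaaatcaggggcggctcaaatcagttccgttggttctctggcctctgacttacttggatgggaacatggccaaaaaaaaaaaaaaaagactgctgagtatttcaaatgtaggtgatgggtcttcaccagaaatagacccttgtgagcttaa

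The Mrc1 window held 3 copies of the core, at offsets of -180, -167 and -35 bases from the start. The Stab1 window held 1, at -30, and the Olr1 window held 1, at -76. The Cd36 window held 0. Of all 32851 windows, 28.3% held at least 1 copy on either strand. The motifs below were searched on both strands as well, and none of the matches given here overlapped. TGCTGA, the core letters bound by Maf factors, was found once in the Stab1 window, at -43, and once in the Cd36 window, at -11, against 19.5% of all windows. TGANTCA, the site of AP-1 factors, was found once in the Olr1 window, at -60, against 7.81% of all windows. Among the matched windows not shown, that of Cd68 held 2 copies of the PU.1 core and 2 AP-1 sites. The Marco window held 1 PU.1 core, and the Lrp1 window held 0 of these motifs. These matches describe letters in the window and no measured binding.

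Mrc2, also called Endo180, binds and internalises collagen, chiefly in fibroblasts and other mesenchymal cells. It read 7.03 and 7.54 in the F4/80-high TAM, 7.62 and 8.35 in the Ly6C-high TAM, 6.68 and 6.21 in the colon macrophages, and 6.34 and 6.42 in the spleen monocytes. All 4 tumour arrays lay above the 4 healthy arrays, and the colon and spleen arrays overlapped. Ly6C-high TAM exceeded spleen monocytes by 3.05-fold (1.61 ± 0.30, adjusted p = 0.0255) and colon macrophages by 2.92-fold (1.54 ± 0.30, adjusted p = 0.0207). The difference from the monocytes lost its call without Ly6C-high TAM replicate 2 (1.25, adjusted p = 0.0694), either colon array (adjusted p = 0.0501), spleen replicate 1 (adjusted p = 0.172) or spleen replicate 2 (adjusted p = 0.157). The difference from colon macrophages lost its call without colon replicate 1 (adjusted p = 0.0511), colon replicate 2 (adjusted p = 0.115) or either spleen array (adjusted p = 0.054). F4/80-high TAM differed by 0.84 from colon macrophages (adjusted p = 0.122) and by 0.91 from spleen monocytes (adjusted p = 0.106), and neither passed.

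Fibroblast markers moved in part with Mrc2, and their mean and Mrc2 had a Pearson r of 0.76 over the 8 arrays. The mean of 10 fibroblast markers was 7.66 and 8.77 in the F4/80-high TAM, 8.21 and 9.52 in the Ly6C-high TAM, 8.10 and 8.36 in the colon macrophages, and 6.73 and 6.73 in the spleen monocytes. The array with the highest Mrc2 also had the highest fibroblast mean, and between the Ly6C-high TAM arrays Mrc2 differed by 0.73 while the fibroblast mean differed by 1.31. The colon arrays had fibroblast means above that of F4/80-high TAM replicate 1, at 8.10 and 8.36 against 7.66, and lower Mrc2, at 6.68 and 6.21 against 7.03. Of the 10 markers, 3 were higher in Ly6C-high TAM than in spleen monocytes (2.88% of all genes). Between Ly6C-high TAM and colon macrophages, 0 passed the threshold (2.74% of all genes were higher and 4.16% lower). The list medians in these pairs were 1.88 and 1, against -0.083 and -0.011 for all genes. The defining collagen Col1a1 read 8.72 and 10.17 in F4/80-high TAM and 9.36 and 10.94 in Ly6C-high TAM. It read 9.23 and 8.69 in colon macrophages and 8.17 and 8.26 in spleen monocytes. All markers of the list but Postn and Fap were highest on Ly6C-high TAM replicate 2, the array with the highest Mrc2. Dcn, the most abundant, read 10.82 and 11.69 in F4/80-high TAM and 11.5 and 12.56 in Ly6C-high TAM. It read 10.41 and 11 in colon macrophages and 6.26 and 5.78 in spleen monocytes. Postn was highest on colon replicate 2, at 9.99 against 9.94 on Ly6C-high TAM replicate 2. Fap was highest in the colon arrays, at 6.83 and 7.47, where Mrc2 was low. Fap read 6.51 and 5.92 in Ly6C-high TAM, which overlapped spleen monocytes at 6.2 and 6.36. The part of fibroblast RNA in the Mrc2 values was not tested. The profiles most like that of Mrc2 belonged to the Wnt receptor Fzd2 (r = 0.992 over 8 arrays), Micall1 (r = 0.981) and the activin subunit Inhba (r = 0.980).

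Msr1 and Marco are the class A receptors, trimers with a collagen-like stalk that bind acetylated lipoproteins and bacteria. Msr1 read 12.66 and 12.64 in the F4/80-high TAM, 12.79 and 12.48 in the Ly6C-high TAM, 11.82 and 11.69 in the colon macrophages, and 11.83 and 11.84 in the spleen monocytes. Both tumour populations lay above both healthy ones with no overlap. The differences were 0.90 ± 0.14 for F4/80-high TAM minus colon macrophages (1.86-fold, adjusted p = 0.0127), 0.81 ± 0.14 for F4/80-high TAM minus spleen monocytes (1.76-fold, adjusted p = 0.0147), 0.80 ± 0.14 for Ly6C-high TAM minus spleen monocytes (1.74-fold, adjusted p = 0.022) and 0.88 ± 0.14 for Ly6C-high TAM minus colon macrophages (1.84-fold, adjusted p = 0.0113). They met the adjusted p and not the fold of 2, and at that adjusted p alone between 6.74% and 12.3% of all genes passed in these 4 pairs. Each of the 4 missed the adjusted p without some array. F4/80-high TAM minus colon macrophages did so without F4/80-high TAM replicate 1 (adjusted p = 0.0633) or 2 (adjusted p = 0.0598) or colon replicate 2 (adjusted p = 0.0639). F4/80-high TAM minus spleen monocytes did so without F4/80-high TAM replicate 1 (adjusted p = 0.0665) or 2 (adjusted p = 0.0743), spleen replicate 1 (adjusted p = 0.116) or 2 (adjusted p = 0.118), and under median centring (0.58, adjusted p = 0.0932). Ly6C-high TAM minus spleen monocytes did so without spleen replicate 1 (adjusted p = 0.169) or 2 (adjusted p = 0.173) and under median centring (0.64, adjusted p = 0.0998). Ly6C-high TAM minus colon macrophages did so without colon replicate 2 (adjusted p = 0.0668), and was 1.04 and passed both criteria without Ly6C-high TAM replicate 2. The tumour populations differed from each other by 0.02 (95% interval -0.32 to 0.35), and the healthy ones by -0.08 (-0.42 to 0.25). Marco, best known from alveolar and marginal zone macrophages, read between 6.04 and 6.72 on the 8 arrays, below the median of all probe sets on each array (6.84 to 7.07). Its differences lay between -0.42 and 0.06, and none passed.

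The class B receptors Cd36 and Scarb1 both take up lipid, Cd36 as a receptor for oxidised lipoprotein, fatty acids and thrombospondin, and Scarb1 as the receptor for high density lipoprotein. Cd36 read 7.96 and 8.76 in the F4/80-high TAM, 7.54 and 7.61 in the Ly6C-high TAM, 10.56 and 10.82 in the colon macrophages, and 8.62 and 8.66 in the spleen monocytes. Both colon arrays lay above the other 6, and both Ly6C-high TAM arrays lay below them. Relative to colon macrophages, Cd36 was 5.02-fold lower in F4/80-high TAM (-2.33 ± 0.25, adjusted p = 0.00458) and 8.64-fold lower in Ly6C-high TAM (-3.11 ± 0.25, adjusted p = 0.00145). Colon macrophages exceeded spleen monocytes by 4.13-fold (2.05 ± 0.25, adjusted p = 0.00295), and these 3 calls held with any 1 array left out. Ly6C-high TAM minus spleen monocytes was -1.07 ± 0.25 (adjusted p = 0.0602), and passed without either F4/80-high TAM array (adjusted p = 0.0135). F4/80-high TAM minus spleen monocytes was -0.28 (95% interval -0.89 to 0.33) and turned to 0.12 without F4/80-high TAM replicate 1.

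Cd36 is also known in gut epithelium and in endothelium, and epithelial markers were highest in the colon arrays. All 13 epithelial markers were higher in colon macrophages than in spleen monocytes (6.93% of all genes), and 8 were lower in F4/80-high TAM than in colon macrophages (3.72% of all genes). Over the 8 arrays, Cd36 had a Pearson r of 0.77 with the epithelial mean and 0.27 with the endothelial mean. Between the Ly6C-high TAM arrays the epithelial mean differed by 2.28 and the endothelial mean by 1.37, while Cd36 differed by 0.07. Between the F4/80-high TAM arrays the epithelial mean differed by 1.88, and Cd36 by 0.80 in the same direction. Spleen monocytes, with epithelial means of 7.0 and 6.27, had more Cd36 than either Ly6C-high TAM array. The profiles most like that of Cd36 were Als2cl (r = 0.984), the apolipoprotein gene Apol7c (r = 0.974) and Spdef, a goblet cell transcription factor (r = 0.969). The part of epithelial RNA in the colon values of Cd36 was not tested.

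Scarb1 read 9.76 and 10.32 in the F4/80-high TAM, 10.46 and 10.66 in the Ly6C-high TAM, 10.01 and 10.10 in the colon macrophages, and 11.87 and 11.75 in the spleen monocytes. Both monocyte arrays lay above the other 6. Scarb1 was 3.41-fold lower than in the monocytes in F4/80-high TAM (-1.77 ± 0.20, adjusted p = 0.00291), 2.38-fold lower in Ly6C-high TAM (-1.25 ± 0.20, adjusted p = 0.0155) and 3.38-fold lower in colon macrophages (-1.76 ± 0.20, adjusted p = 0.00216). The call for Ly6C-high TAM was lost without spleen replicate 1 (adjusted p = 0.132) or spleen replicate 2 (adjusted p = 0.112). F4/80-high TAM and colon macrophages differed by -0.01 (95% interval -0.49 to 0.46), Ly6C-high TAM and colon macrophages by 0.50 (0.03 to 0.98), and F4/80-high TAM and Ly6C-high TAM by -0.52 (-0.995 to -0.04). Rbm38 (r = 0.991), Rgs3 (r = 0.990) and Tmc6 (r = 0.989) had the profiles most like that of Scarb1.

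**Figure D3:**
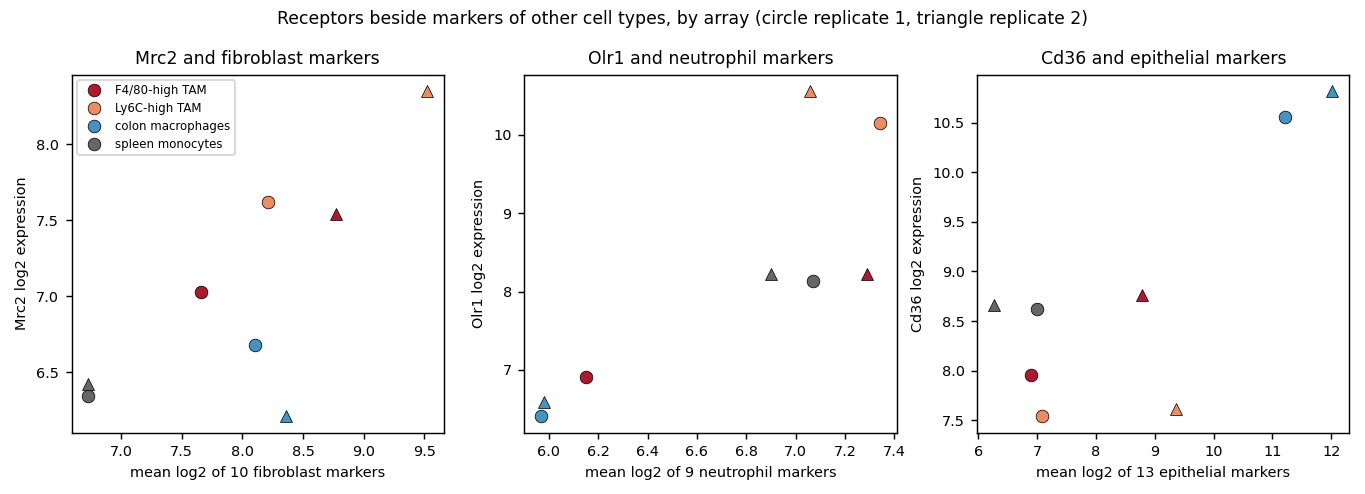
Mrc2, Olr1 and Cd36 log2 expression (vertical axes) against the mean log2 of 10 fibroblast, 9 neutrophil and 13 epithelial markers (horizontal axes), with 1 point per array, circles for replicate 1 and triangles for replicate 2. The Ly6C-high TAM arrays differ by 2.28 in epithelial mean at nearly the same Cd36, and the highest Mrc2 value stands with the highest fibroblast mean.

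Olr1, also called LOX-1, is a lectin-like receptor for oxidised lipoprotein that inflammatory signals are known to induce. It read 6.91 and 8.22 in the F4/80-high TAM, 10.15 and 10.56 in the Ly6C-high TAM, 6.41 and 6.59 in the colon macrophages, and 8.14 and 8.22 in the spleen monocytes. Both Ly6C-high TAM arrays lay above the other 6, the colon arrays lay lowest, and F4/80-high TAM overlapped the monocytes. Ly6C-high TAM exceeded colon macrophages by 14.5-fold (3.85 ± 0.40, adjusted p = 0.00284), a call that held with any 1 array left out. Ly6C-high TAM exceeded spleen monocytes by 4.51-fold (2.17 ± 0.40, adjusted p = 0.0251). That call was lost without Ly6C-high TAM replicate 2 (adjusted p = 0.0932), either colon array (adjusted p = 0.0639), spleen replicate 1 (adjusted p = 0.165) or spleen replicate 2 (adjusted p = 0.157). Colon macrophages were 3.2-fold below spleen monocytes (-1.68 ± 0.40, adjusted p = 0.0293), lost without colon replicate 1 (adjusted p = 0.141) or 2 (adjusted p = 0.111) and without spleen replicate 1 (adjusted p = 0.133) or 2 (adjusted p = 0.154).

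Within tumours, Olr1 was 6.91-fold lower in F4/80-high TAM than in Ly6C-high TAM (-2.79 ± 0.40) and missed the threshold (adjusted p = 0.0623). It passed without F4/80-high TAM replicate 2 (-3.45, adjusted p = 0.0257) and after median centring of the arrays (-2.86, adjusted p = 0.0358). The F4/80-high TAM arrays lay 1.32 apart, and both other comparisons of that population turned on which one was used. Minus colon macrophages, the difference was 1.06 (adjusted p = 0.142), and it was 1.72 and passed without replicate 1 (adjusted p = 0.0237). Minus spleen monocytes, it was -0.62 (adjusted p = 0.408), 0.04 without replicate 1, and -1.27 and past the threshold without replicate 2 (adjusted p = 0.0321). The mean of 9 neutrophil markers was 6.15 and 7.29 in the F4/80-high TAM, 7.34 and 7.06 in the Ly6C-high TAM, 5.97 and 5.98 in the colon macrophages, and 7.07 and 6.90 in the spleen monocytes. Over the 8 arrays this mean and Olr1 had a Pearson r of 0.83. The defining antigen gene Ly6g read 5.75 and 8.80, 6.16 and 9.23, 7.48 and 9.61, and 5.59 and 5.58 in the same order of populations. Mmp8, on the same list, read 7.77 and 7.96, 11.56 and 9.34, 5.19 and 5.13, and 11.37 and 11.25. S100a8 read 6.40 and 7.67, 9.07 and 6.77, 5.63 and 5.90, and 8.0 and 7.70. The median difference of the 9 markers was -0.03 in F4/80-high TAM minus Ly6C-high TAM and -0.09 in Ly6C-high TAM minus spleen monocytes, pairs in which Olr1 differed by -2.79 and 2.17. Against colon macrophages it was 0.75 in Ly6C-high TAM and 0.87 in F4/80-high TAM. Replicate 2 minus replicate 1 was 1.14 for the marker mean and 1.32 for Olr1 in F4/80-high TAM, and -0.29 and 0.40 in Ly6C-high TAM. The part of neutrophil RNA in the Olr1 values was not tested. The transcription factor Cebpb (r = 0.984), Rab44 (r = 0.971) and Rhou (r = 0.969) had the profiles most like that of Olr1.

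Cd68, a lysosomal glycoprotein used as a general macrophage marker, read 12.95 and 13.03 in the F4/80-high TAM, 12.98 and 12.81 in the Ly6C-high TAM, 12.96 and 12.89 in the colon macrophages, and 12.96 and 12.94 in the spleen monocytes. All populations overlapped, and the 95% intervals of its 6 differences lay within -0.34 and 0.38. Lrp1, a large receptor of the LDL receptor family that takes up protease complexes, lipoproteins and apoptotic cells, read 12.58 and 12.42 in the F4/80-high TAM, 12.77 and 12.45 in the Ly6C-high TAM, 11.62 and 11.57 in the colon macrophages, and 12.67 and 12.71 in the spleen monocytes. Both colon arrays lay below the other 6. Colon macrophages were 2.14-fold below spleen monocytes (-1.10 ± 0.14, adjusted p = 0.00361), a call that held with any 1 array left out. Ly6C-high TAM were 2.02-fold above colon macrophages (1.02 ± 0.14, adjusted p = 0.00782), which fell under the fold of 2 without Ly6C-high TAM replicate 1 (0.86) or colon replicate 2 (0.99). F4/80-high TAM were 0.90 ± 0.14 above colon macrophages (1.87-fold, adjusted p = 0.0135) and did not reach that fold, and the adjusted p lay between 0.0506 and 0.0692 without any 1 of the 4 arrays of this pair. The colon arrays also had the most epithelial signal, and Lrp1 and the epithelial mean had a Pearson r of -0.95 over the 8 arrays. In the tumour populations, replicate 2 minus replicate 1 was 1.88 and 2.28 for the epithelial mean and -0.16 and -0.32 for Lrp1. The part of other cells' RNA in the colon values of Lrp1 was not tested. The profiles most like that of Lrp1 were the chemokine Ccl9 (r = 0.994), AB124611 (r = 0.991) and Ms4a4c (r = 0.990).

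The difference between tumour and healthy cells was not the same in the F4/80-high and the Ly6C-high comparison for 3 members, where 6.56% of all genes differed at an adjusted p of 0.05 or less. Stab1 differed by -0.19 between F4/80-high TAM and colon macrophages and by 4.19 between Ly6C-high TAM and spleen monocytes, a difference of -4.38 ± 0.49 (adjusted p = 0.0075). This held with any 1 array left out. For Mrc1 the tumour differences were -0.48 and 2.06, a difference of -2.54 ± 0.54 (adjusted p = 0.044). It lost its call without any 1 of 6 arrays: F4/80-high TAM replicate 1 (adjusted p = 0.0832) or 2 (adjusted p = 0.101), colon replicate 1 (adjusted p = 0.122) or 2 (adjusted p = 0.118), and spleen replicate 1 (adjusted p = 0.113) or 2 (adjusted p = 0.175). For Lrp1 they were 0.90 and -0.08, a difference of 0.98 ± 0.20 (adjusted p = 0.0411). That call was lost without any 1 array other than Ly6C-high TAM replicate 1, at adjusted p-values between 0.0698 (without Ly6C-high TAM replicate 2) and 0.18 (without spleen replicate 2). Scarb1 missed the threshold with -0.01 and -1.25 (adjusted p = 0.0523) and passed without F4/80-high TAM replicate 1 (adjusted p = 0.037). Cd36 missed it with -2.33 and -1.07 (adjusted p = 0.0921) and passed without F4/80-high TAM replicate 2 (-1.66, adjusted p = 0.028), as did Olr1 (-1.77, adjusted p = 0.0395). The same contrast also gives the step between F4/80-high TAM and Ly6C-high TAM minus the step between colon macrophages and spleen monocytes, which for Stab1 were 0.96 and 5.34.

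**Figure D4:**
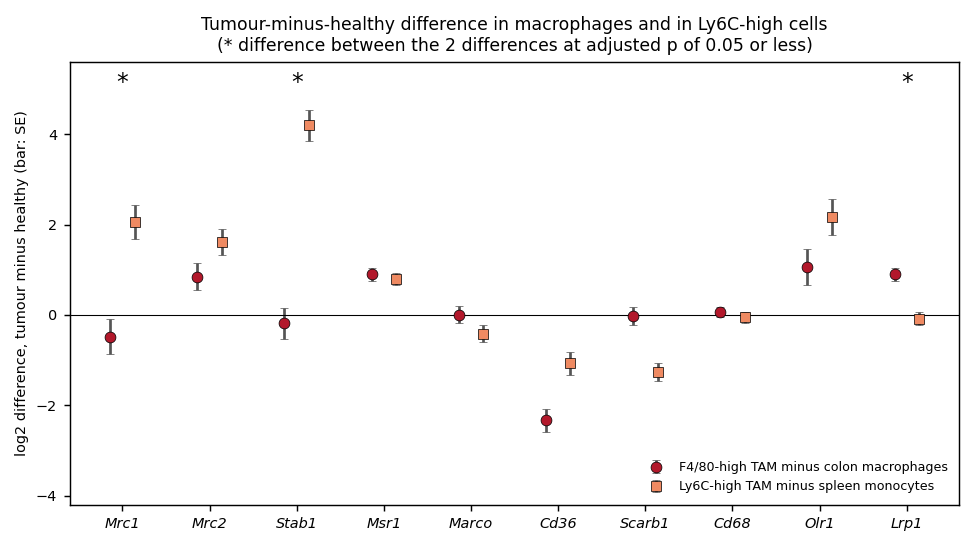
Log2 difference of each receptor gene between tumour and healthy cells (vertical axis, bars show the SE of the fit), with circles for F4/80-high TAM minus colon macrophages and squares for Ly6C-high TAM minus spleen monocytes. Stars stand over Mrc1, Stab1 and Lrp1, and the points for Stab1 lie at -0.19 and 4.19.

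Genes that act with collagen receptors were given as a list of 16, which covers proteases that cut collagen outside the cell, clathrin adaptors and lysosomal enzymes. Of these, 6 were higher and 0 lower in Ly6C-high TAM than in spleen monocytes, 6 higher and 0 lower in F4/80-high TAM than in spleen monocytes, and 5 higher and 0 lower in colon macrophages than in spleen monocytes. Of all genes, 2.88%, 4.58% and 6.93% were higher and 1.62%, 2.37% and 4% lower in the same order. The list medians were 0.74, 0.63 and 0.14, against -0.083, -0.021 and -0.07 for all genes. These 3 comparisons share the monocyte arrays. Dab2, a clathrin adaptor for receptors of the LDL receptor family, was 73.1-fold higher in F4/80-high TAM (6.19 ± 0.64, adjusted p = 0.00208), 63.8-fold in Ly6C-high TAM (5.99) and 77-fold in colon macrophages (6.27). Its monocyte values were 8.04 and 5.75, so the folds were 161, 141 and 170 without spleen replicate 1 and 33.1, 28.9 and 34.9 without spleen replicate 2, all past the threshold. The membrane collagenase Mmp14 read 11.71 and 12.17 in the F4/80-high TAM, 11.81 and 11.88 in the Ly6C-high TAM, 11.57 and 11.52 in the colon macrophages, and 8.02 and 7.52 in the spleen monocytes. Its differences from the monocytes were 4.17, 4.07 and 3.77. Plau, which encodes urokinase, was higher than in the monocytes by 3.57, 3.24 and 3.65. The lysosomal membrane protein Cd63 was higher by 4.79, 3.83 and 5.24.

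Between tumour and colon, 1 of the 16 genes was higher and 0 lower in F4/80-high TAM than in colon macrophages (2.67% and 3.72% of all genes). It was the lysosomal protease Ctsl (1.27 ± 0.20, 2.42-fold, adjusted p = 0.0136), which missed the threshold without any 1 of the 4 arrays of this pair. In Ly6C-high TAM 0 were higher and 1 lower than in colon macrophages (2.74% and 4.16% of all genes). The lower gene was Cd63 (-1.41, adjusted p = 0.0104), which missed the threshold without colon replicate 2. Of the 16, 5 differed between both tumour differences, where 6.56% of all genes did. They included Dab2 (-6.07), Cd63 (-4.28), Mmp14 (-3.68) and Plau (-3.31), each with the larger tumour difference in the Ly6C-high comparison. The call of Dab2 was lost without either F4/80-high TAM array or either colon array (adjusted p from 0.0508 to 0.0655), and its difference was -7.21 without spleen replicate 1 and -4.93 without spleen replicate 2.

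**Figure D5:**
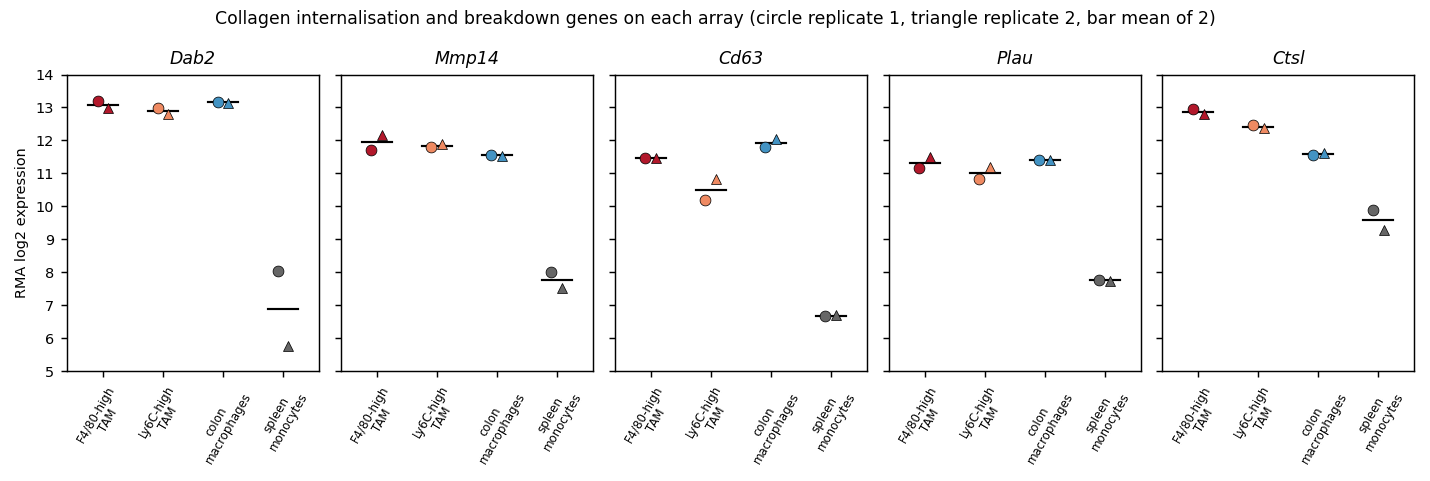
RMA log2 expression (vertical axis) of Dab2, Mmp14, Cd63, Plau and Ctsl on every array of the 4 populations (horizontal axis), with circles for replicate 1, triangles for replicate 2 and a bar at the mean of 2. Both spleen monocyte arrays lie below the 6 tumour and colon arrays in each panel, and the monocyte values of Mmp14 are 8.02 and 7.52.

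Of 18 scavenger receptors outside the 10 members, 2 were higher than in spleen monocytes in both tumour populations. They were Cxcl16, a membrane chemokine that also binds oxidised lipoprotein (3.69 in F4/80-high TAM and 3.24 in Ly6C-high TAM), and the endotoxin receptor Cd14 (2.31 and 2.68). Of all genes, 4.58% were higher in F4/80-high TAM and 2.88% in Ly6C-high TAM. The list medians were 0.02 and -0.11, against -0.021 and -0.083 for all genes. Colon macrophages had 3 higher than the monocytes, where 6.93% of all genes were higher, with a list median of 0.03 against -0.07. They were Cxcl16, Cd14 and the haemoglobin scavenger receptor Cd163 (2.26 ± 0.61, adjusted p = 0.0456). Cd163 was 7.19-fold lower in Ly6C-high TAM than in colon macrophages (-2.85 ± 0.61, adjusted p = 0.0302), and it read 7.96 and 5.96 in F4/80-high TAM, which overlapped neither colon array at 8.38 and 9.12. The call of Cd163 between colon macrophages and monocytes was lost without any 1 of their 4 arrays (adjusted p from 0.105 to 0.216). That between Ly6C-high TAM and colon macrophages was lost without Ly6C-high TAM replicate 2, either colon array or either spleen array (adjusted p from 0.0685 to 0.152). Of 11 measured collagen-binding receptors and mannose receptor relatives, the integrin subunit Itga1 was lower than in spleen monocytes in F4/80-high TAM (-3.12) and colon macrophages (-1.84). The inhibitory collagen receptor Lair1 was higher than in spleen monocytes in F4/80-high TAM (1.21) and colon macrophages (1.19). Itga2, a collagen-binding integrin subunit, was higher in colon macrophages than in the monocytes (2.54) and lower than in colon macrophages in F4/80-high TAM (-2.11) and Ly6C-high TAM (-2.14), where epithelial markers were lower too. The call of Lair1 in F4/80-high TAM was lost without any 1 array other than those of Ly6C-high TAM. In colon macrophages it was lost without any 1 of the 4 arrays compared. The call of Itga1 in colon macrophages was lost without colon replicate 1 or either spleen array. The call of Itga2 in F4/80-high TAM was lost without either array of that population, colon replicate 2 or either spleen array (adjusted p from 0.052 to 0.0901), and in Ly6C-high TAM without colon replicate 2 (adjusted p = 0.0877).

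Of 18 measured genes of the LDL receptor family and its chaperones, 3 were higher and 1 lower in F4/80-high TAM than in colon macrophages. Of all genes, 2.67% were higher and 3.72% lower in that pair, and the list median was 0.04, against 0.048 for all genes. Lrpap1, a chaperone of the endoplasmic reticulum that Lrp1 and its relatives need to fold, was 2.11-fold higher (1.07 ± 0.13, adjusted p = 0.00646), a fold that was 1.98 without colon replicate 1, and Lrp12 was higher by 1.65, while the sorting receptor Sort1 was lower (-2.40). Lrp12 was higher than in spleen monocytes in F4/80-high TAM (3.13), Ly6C-high TAM (2.72) and colon macrophages (1.48), and Sorl1 was lower in F4/80-high TAM (-1.93), Ly6C-high TAM (-1.28) and colon macrophages (-1.37). The calls of Sorl1 were lost without spleen replicate 2 in F4/80-high TAM (adjusted p = 0.0647), without Ly6C-high TAM replicate 2, either colon or either spleen array in Ly6C-high TAM (adjusted p from 0.0843 to 0.25), and without any 1 of the 4 arrays compared in colon macrophages (adjusted p from 0.0721 to 0.104). Of 17 known regulators of these receptors, 0 were higher and 3 lower in F4/80-high TAM than in colon macrophages (2.67% and 3.72% of all genes). The list median was -0.07, against 0.048 for all genes. Pparg, the lipid-sensing receptor known to induce Cd36, read 8.80 and 8.71 in the F4/80-high TAM, 8.24 and 8.26 in the Ly6C-high TAM, 9.98 and 10.40 in the colon macrophages, and 9.38 and 9.12 in the spleen monocytes. It was lower than in colon macrophages by -1.44 ± 0.17 in F4/80-high TAM (adjusted p = 0.00606) and by -1.94 in Ly6C-high TAM (adjusted p = 0.00182). Irf4 was lower than in colon macrophages in F4/80-high TAM (-1.50) and Ly6C-high TAM (-1.01), and Ppara likewise (-1.25 and -1.13). In Ly6C-high TAM, Irf4 was under the fold of 2 without Ly6C-high TAM replicate 2 (-0.86) or colon replicate 1 (-0.96). Ppara lost its call in F4/80-high TAM without either array of that population (adjusted p of 0.0666 and 0.0785) or colon replicate 2 (-0.93), and in Ly6C-high TAM without replicate 2 of that population (adjusted p = 0.0594), colon replicate 2 (-0.81) or either spleen array (adjusted p = 0.0528). Maf, a transcription factor of macrophages, was higher than in spleen monocytes in F4/80-high TAM (2.13), Ly6C-high TAM (1.34, with an adjusted p of 0.0547 without spleen replicate 1) and colon macrophages (1.72).

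Of 17 lipid partners of Cd36 and Scarb1, 1 was higher and 1 lower in F4/80-high TAM than in colon macrophages (2.67% and 3.72% of all genes). They were the fatty acid carrier Fabp5 (1.61, adjusted p = 0.0436) and the triglyceride enzyme Dgat2 (-1.45). The list median was 0.32, against 0.048 for all genes. The call of Fabp5 was lost without F4/80-high TAM replicate 2, either colon array or either spleen array (adjusted p from 0.0922 to 0.202), and that of Dgat2 without either colon array (adjusted p of 0.07 and 0.0818). Dgat2 was also lower in F4/80-high TAM than in Ly6C-high TAM (-2.43, adjusted p = 0.0303). It was the 1 gene of this list to pass in that pair, where 0.266% of all genes passed. This call was lost without F4/80-high TAM replicate 1, Ly6C-high TAM replicate 1, or any 1 colon or spleen array. Abca1, which exports cholesterol to lipoprotein acceptors, was higher than in spleen monocytes in F4/80-high TAM (3.66, 12.6-fold), Ly6C-high TAM (3.01, 8.04-fold) and colon macrophages (3.34, 10.1-fold). Scarb1, which also moves cholesterol between cells and lipoprotein, was lower in the same 3 comparisons.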

How the data were processed

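The deposited values are log2 expression values, 1 column per array, which the authors made with RMA in Partek 6.6, per the submitters' processing notes. The array annotation, the genome build and the RMA version were not given in the sources used here. RMA pulls arrays to a common distribution, so a shift shared by most genes would not be seen. Probe sets were named through the symbols of an annotated table that the authors also deposited. Its 8 value columns match no sample label and were not used.

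Of 35556 probe sets, 24692 carried a symbol. Symbols were updated by RefSeq accession to GRCm38.p6, which matched 21023 and changed 1926. The probe set with the highest mean stood for each of 21442 genes. Arrays give no read depth, and 2 arrays per population limit the precision of every value.

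A mean per population was fitted to all 8 arrays with limma 3.58.1 in R 4.3.3 (4 residual and 2.64 prior degrees of freedom), and p-values were adjusted over all genes, comparison by comparison, after Benjamini and Hochberg. Every printed adjusted p is limma's, the error beside a difference is its standard error, and n is 2 per population. The thresholds follow the submitters' notes (adjusted p of 0.05, fold of 2). The fit was tested on simulated data.

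The members, gene lists and rules were chosen with earlier results of these data known. All 10 members were named whatever their values. From each of 6 pathway lists, at most 4 genes past the threshold per comparison were allowed, largest differences first, and not all are printed. For each member past the threshold, the 3 most correlated named genes with a mean log2 of at least 7 were named, without predicted transcripts. Some genes that these rules select are not reported here. Other settings tried were median centring, quantile normalization, a mean log2 filter of 6, the mean of all probe sets, a fit of the compared groups alone, no moderation, a replicate block, no fold limit, and leaving out each array or both tumour replicate 2 arrays. Leaving out each array for the pathway genes was chosen after seeing the data. Promoter windows are RefSeq's.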

Additional observations from a re-analysis of the deposited data

Results flagged for a closer look

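Tests of the difference between the 2 tumour differences set 3 members apart, each with n = 2 per population in limma. The difference of Stab1 was -4.38 ± 0.49 (adjusted p = 0.0075), with tumour minus healthy at -0.19 in the F4/80-high comparison and 4.19 in the Ly6C-high comparison. It was negative under every setting tried for it, and lost its call without moderation of the spread (adjusted p = 0.0787). The difference of Mrc1 was -2.54 ± 0.54 (adjusted p = 0.044), from -0.48 and 2.06, and after median centring it was -2.32 (adjusted p = 0.0521). The difference of Lrp1 was 0.98 ± 0.20 (adjusted p = 0.0411), from 0.90 and -0.08. The healthy partner of the Ly6C-high cells came from spleen and that of the F4/80-high cells from colon, so organ and maturation stage cannot be told apart in this contrast. No population had the 4 arrays needed to test for an outlying array.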

How the results depend on the processing

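With 1 array left out, the number of members past the threshold ran from 1 to 2 in F4/80-high TAM minus colon macrophages, 0 to 1 in F4/80-high TAM minus Ly6C-high TAM, 1 to 6 in Ly6C-high TAM minus spleen monocytes, 2 to 6 in Ly6C-high TAM minus colon macrophages, and 1 to 3 in the difference of tumour differences. It ran from 3 to 4 in F4/80-high TAM minus spleen monocytes and from 5 to 6 in colon macrophages minus spleen monocytes. Of 20 member calls over the 6 pairs, 12 held with any 1 array left out and 8 were lost in some, while 6 of the 40 differences that missed the threshold passed in some. The number of all genes past the threshold changed with 1 array left out as well. In Ly6C-high TAM minus spleen monocytes, it fell without either spleen array and rose without Ly6C-high TAM replicate 1. The member ranges are thus no result about the members alone. Without moderation the counts were 1 for Ly6C-high TAM minus spleen monocytes, 3 for Ly6C-high TAM minus colon macrophages and 0 for the difference of tumour differences. Calls over all genes were then 205 higher and 109 lower in the first pair, against 617 and 347. In the second pair they were 268 and 221, against 587 and 892. In a fit of the 2 compared groups, Ly6C-high TAM minus colon macrophages had 2. With no fold limit, F4/80-high TAM minus colon macrophages had 3, where 12.3% of all genes passed. Without both tumour replicate 2 arrays, the lone tumour arrays are assumed to vary like the healthy groups. Olr1 in F4/80-high TAM minus Ly6C-high TAM was then -3.25, and more of all genes passed in that pair than with all 8 arrays. Median centring gave 1 (Olr1) in F4/80-high TAM minus Ly6C-high TAM, where 26 of all genes were higher and 27 lower, against 36 and 21. It moved the median of all genes by up to -0.28 (colon macrophages minus spleen monocytes). The calls over all genes in that pair then stood at 1259 higher and 1655 lower, against 1486 and 857. Median centring also gave 790 higher and 863 lower in F4/80-high TAM minus spleen monocytes, against 981 and 509. In Ly6C-high TAM minus spleen monocytes it gave 575 and 505, against 617 and 347.

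Replicate numbers do not tie arrays to an animal. Deviations of same-numbered arrays correlated at 0.77 between both tumour populations, at 0.22 and 0.26 between these and colon, and at -0.15 to -0.06 with spleen, so the number was not taken as a pairing. A replicate block over all arrays left 67 member results on the same side of the threshold and moved 3, with Cd36 in Ly6C-high TAM minus spleen monocytes (-1.07, adjusted p = 0.0363), Stab1 in Ly6C-high TAM minus colon macrophages (-1.15, adjusted p = 0.0229) and Scarb1 in the difference of tumour differences (1.24, adjusted p = 0.0407) now passing. A block in a fit of the 4 tumour arrays, an alternative chosen after seeing the data, gave 2 members in F4/80-high TAM minus Ly6C-high TAM, Mrc1 (1.56, adjusted p = 0.0439) and Olr1 (-2.79, adjusted p = 0.0417).

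Directions that turned belonged to differences that missed the threshold with all 8 arrays; Olr1 in F4/80-high TAM minus spleen monocytes was among them, and passed without F4/80-high TAM replicate 2 (-1.27, adjusted p = 0.0321). In F4/80-high TAM minus colon macrophages, Stab1 ran from -0.43 to 0.06, Marco from -0.17 to 0.17 and Scarb1 from -0.30 to 0.27 with 1 array left out. Median centring gave 0.06 for Marco and 0.04 for Scarb1, quantile normalization 0.09 for Marco and -0.03 for Cd68, and the setting without both tumour replicate 2 arrays 0.06 for Stab1 and 0.17 for Marco. In F4/80-high TAM minus Ly6C-high TAM, Msr1 ran from -0.14 to 0.17, Marco from -0.11 to 0.23 and Lrp1 from -0.28 to 0.05. Median centring gave -0.05 for Msr1 and 0 for Marco, and the setting without both tumour replicate 2 arrays -0.13 for Msr1 and -0.03 for Cd68. In Ly6C-high TAM minus spleen monocytes, Cd68 ran from -0.14 to 0.03 and Lrp1 from -0.24 to 0.08, and without both arrays they were 0.03 and 0.08. In F4/80-high TAM minus spleen monocytes, Cd36 ran from -0.68 to 0.12 and Olr1 from -1.27 to 0.04, and Cd68 was -0.18 under median centring and -0.02 under quantile normalization. In Ly6C-high TAM minus colon macrophages, Marco ran from -0.20 to 0.08 and Cd68 from -0.12 to 0.06. There Marco was 0.06 after median centring, 0.08 after quantile normalization and 0.06 without both arrays, and Cd68 0.09 after median centring and 0.06 without both arrays. In colon macrophages minus spleen monocytes, Mrc2 ran from -0.16 to 0.30 and Cd68 from -0.06 to 0.01. Median centring gave -0.22 for Mrc2, and quantile normalization -0.03 for Mrc2, 0.03 for Msr1 and 0.02 for Cd68. In the difference of tumour differences, Msr1 ran from -0.06 to 0.26, and without both arrays Msr1 was -0.05 and Cd68 0. The cause of these changes was not tested.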
